A study of Mus musculus with 4 samples.

Results

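The testis-specific serine kinases are a small family of protein kinases that act in male germ cells, and the mRNAs of its members Tssk1 to Tssk6 were followed here in an RNA immunoprecipitation (RIP) of the RNA-binding protein LARP7. Members were the gene models with exactly these symbols, 6 of 50600 in the files, each found once and each listed as protein-coding. In such an experiment a bead-bound antibody recovers a protein from lysate along with its RNAs, while IgG of no set target shows which RNAs stick regardless. Testes of 8-week-old C57BL/6 mice were used in both groups, which held 2 libraries each. One group was the LARP7 RIP (abcam antibody, replicates 1 and 2) and the other the IgG RIP (Millipore IgG, replicates 1 and 2). Lysis, beads and washing were the same for both, and a small RNA kit with a size selection of 15 to 300 nt was used, so that counts of an mRNA are counts of its short fragments. The mean fragment length that the effective lengths imply was 65.8 and 63.8 nt in the LARP7 libraries and 64.2 and 61.8 nt in the IgG libraries.

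TSSK proteins belong to the kinase group that also holds the AMP-activated protein kinase and its relatives. Their genes are transcribed mainly after meiosis, in spermatids, where the kinases serve the reshaping of the cell into a sperm, and male mice that lack Tssk1 and Tssk2 together, or Tssk6, are infertile. LARP7 is known for binding the 3' end of 7SK RNA and for a role in the maturation of U6 RNA. The question put to the members was whether their fragments were more or less frequent in the LARP7 RIP than in the IgG RIP, and how they stood beside other protein-coding genes of like count and length.

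Total expected counts were 6918040 and 6502682 for LARP7 replicates 1 and 2, against 6994514 and 4411271 for IgG replicates 1 and 2. The factors of edgeR's TMM scaling, which centres the bulk of genes, were 0.558 and 0.673 with the LARP7 antibody and 1.85 and 1.44 with IgG, and using library totals in their place moved the median of all genes by -1.42 on the log2 scale. With TMM 9.69% of all genes tested were lower and 14.5% higher, while with library totals 47.1% were lower and 3.95% higher. Changes are therefore given relative to the bulk of genes, and CPM stands for counts scaled to a common library size with TMM, unless library totals are named. No label ties the replicates to separate mice, and p-values then measure the spread of these libraries alone, which may be technical. Markers of the tissue were present: the 5 markers of elongating spermatids together had 1497 and 1089 counts with the LARP7 antibody and 12256 and 6842 with IgG. Of 5 epididymis markers none passed the filter on low counts, and Crisp1, Lcn5 and Adam7 had no count in any library.

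All members had fewer fragments with the LARP7 antibody than with IgG. The 5 members that passed the filter on low counts, Tssk1, Tssk2, Tssk3, Tssk4 and Tssk6, were all called lower (edgeR quasi-likelihood test, two-sided, Benjamini-Hochberg adjustment over 12234 genes, threshold 0.05), and none was higher, also at an unadjusted p under 0.05. For comparison, 9.69% of all genes tested and 10.5% of the 9929 protein-coding genes tested were called lower, and 11.0% of the protein-coding genes were higher. The median log2 fold change of the 5 members was -2.20, against -0.05 for all genes and -0.25 for protein-coding genes. Added up, the 6 models reached 111 and 81 counts with the LARP7 antibody and 1257 and 650 with IgG. In CPM the sum was 28.8 and 18.6 in the LARP7 libraries and 98.2 and 102.8 in the IgG libraries, a log2 ratio of the means of -2.08 that carries no test. As a share of all counts the 6 models held 0.00160% and 0.00125% of the LARP7 libraries and 0.0180% and 0.0147% of the IgG libraries. In CPM, the LARP7 and IgG libraries did not overlap for any of the 6, which also held, in that direction, for 35.6% of all genes and 39.5% of protein-coding genes tested.

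**Figure D1:**
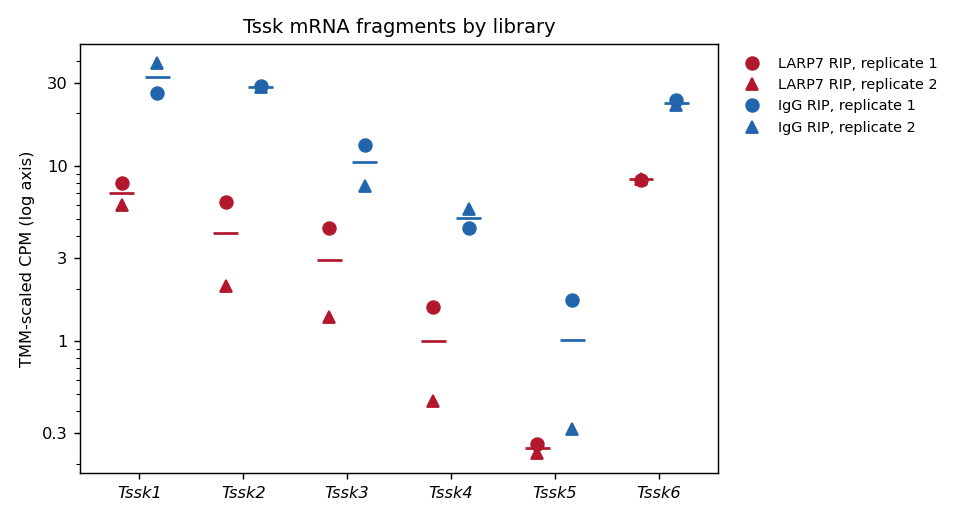
TMM-scaled CPM (log axis) of the 6 Tssk models in each library, LARP7 RIP in red and IgG RIP in blue, with circles for replicate 1, triangles for replicate 2 and bars for the mean of 2 libraries. Both LARP7 libraries lie below both IgG libraries for each model, by the smallest margin for Tssk5, at 0.26 and 0.23 CPM against 1.72 and 0.32 CPM.

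Of the 10 markers of round and elongating spermatids, 4 were lower beside the members and 6 did not pass the test. Over all genes tested, 9.69% were lower. Of 5 elongating spermatid markers 3 were lower and none higher, and the list summed to 389 and 250 CPM in the LARP7 libraries and 957 and 1080 CPM in the IgG libraries, with no marker at 0. With DESeq2, which called 5.99% of all genes lower, 5 elongating spermatid markers were lower. Fewer were called when LARP7 replicate 2 or either IgG library was left out, and so were fewer of all genes. Their median, -1.76 with all libraries, was -1.50 without LARP7 replicate 2. Of 5 round spermatid markers 1 was lower, with sums of 26.0 and 16.3 CPM against 48.2 and 43.3 CPM, and none was without LARP7 replicate 2. Markers of spermatocytes summed to 136 and 121 CPM against 116 and 106 CPM, or 524 and 528 counts against 1483 and 673 before scaling, with none of 5 called (1 higher at an unadjusted p under 0.05 in edgeR). The spermatogonial marker Zbtb16 was the 1 of 4 called higher. That call was lost with library totals, without LARP7 replicate 2 and with limma on log2(TPM + 1) and log2(TPM + 0.1). The Sertoli cell marker Wt1 was the 1 of 4 called lower. That call was lost with the replicate block, with DESeq2 and with limma on log2(TPM + 1). It was also lost when either LARP7 library or IgG replicate 2 was left out. Both were picked out after their values were seen. None of 5 Leydig markers or of 2 tested peritubular, vascular and blood markers was called by edgeR or DESeq2, and none had an unadjusted p under 0.05. With library totals, when 47.1% of all genes were lower, so were 5 of 5 elongating and 5 of 5 round spermatid, 3 of 5 spermatocyte, 4 of 4 Sertoli, 4 of 5 Leydig and 1 of 2 peritubular, vascular and blood markers, and none of 4 spermatogonial markers was called. Which lists held calls therefore rests on the scaling. The order of the list medians was the same with both, but the scaling moves all lists almost alike, so that order could hardly change. With TMM the medians ran from 0.82 for spermatogonia to -1.76 for elongating spermatids. With library totals they ran from -0.58 to -3.23. These values are RNA that each RIP recovered from bulk testis, and they do not measure numbers of cells or RNA per cell. The part of these markers' change in the members' values was not tested.

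Tssk1 and Tssk2 are neighbours on chromosome 16 that act together in spermatids, and their protein products are known to bind and phosphorylate TSKS. In GRCm38.p6, the assembly of mm10, RefSeq places Tssk1 (ENSMUSG00000041566.3) at 17894203 to 17895653 and Tssk2 (ENSMUSG00000045521.6) at 17898637 to 17900024, with 2983 bases between them. The bases just before each gene's RefSeq start are shown for this pair, and the same stretch of Tssk6 is set beside them. They do not show why the pair shares reads in the files. All are 100 bases of RefSeq's GRCm38.p6 on the plus strand, at chr16:17894103-17894202 for Tssk1, chr16:17898537-17898636 for Tssk2 and chr8:69902084-69902183 for Tssk6. Capitals mark TGACTTCA or its reverse complement, and TGACG.
Tssk1: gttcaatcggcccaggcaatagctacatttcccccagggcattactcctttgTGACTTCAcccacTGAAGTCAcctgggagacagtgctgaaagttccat
Tssk2: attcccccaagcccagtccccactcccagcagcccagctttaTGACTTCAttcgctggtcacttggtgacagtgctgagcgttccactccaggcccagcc
Tssk6: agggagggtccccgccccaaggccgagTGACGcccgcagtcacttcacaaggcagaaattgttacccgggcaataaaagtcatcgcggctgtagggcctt

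The longest run shared by the Tssk1 and Tssk2 windows of 250 bases was gacagtgctga, of 11 bases, which starts 20 bases before the start of Tssk1 and 33 bases before that of Tssk2. Both strands of the windows were searched for the cAMP response element TGACGTCA, for its first letters TGACG, which lie within it, for TGACTTCA and for TATAAA. TGACTTCA was chosen after the windows were read. It stood at 2 places before Tssk1 and at 1 before Tssk2, and in 1.31% of all 32851 promoter windows of this length. TGACG stood at 1 place before Tssk6 and in 17.8% of all windows. Neither TGACGTCA (1.55% of all windows) nor TATAAA (12.4%) was in the windows of the 5 members that the promoter table holds. A RIP measures RNA, and these letters carry no result of it.

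Tssk1 had expected counts of 31.37 and 26.07 with the LARP7 antibody and 333.76 and 244.00 with IgG. In CPM these were 8.05 and 5.97 with the LARP7 antibody and 26.1 and 38.6 with IgG, so both LARP7 libraries lay far below both IgG libraries. Tssk1 was thus 4.60-fold lower with the LARP7 antibody (-2.20 ± 0.43 SE on the log2 scale, edgeR adjusted p = 0.00917). The largest fall of the family was that of Tssk2. Its expected counts were 23.63 and 8.93 under LARP7 and 368.24 and 178.00 under IgG. In CPM it had 6.24 and 2.07 in the LARP7 RIP, whose libraries lay apart, and 28.7 and 28.2 in the IgG RIP. That was 6.91-fold lower (-2.79 ± 0.52 SE on the log2 scale, edgeR adjusted p = 0.00794).

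The counts of Tssk1 and Tssk2 were not whole in 3 of the 4 libraries but added up to whole numbers, 55 and 35 in the LARP7 libraries and 702 and 422 in the IgG libraries: RSEM, which estimates how multiply mapping reads divide between models, split some reads between these 2. Its posterior SD reached 8.51% of the Tssk2 count and 3.63% of the Tssk1 count in a library, far less than the difference between the groups. The pair together had 14.3 and 8.03 CPM in the LARP7 libraries and 54.8 and 66.8 CPM in the IgG libraries, a log2 ratio of the means of -2.45. For Tssk3, Tssk4, Tssk5 and Tssk6 the posterior SD was 0 in every library, so none of their reads was split with another model. Among the alternatives run, both calls of the pair were lost only with limma on log2(TPM + 1). The value of Tssk2 was -3.79 without LARP7 replicate 1 and -2.18 without LARP7 replicate 2, with adjusted p = 0.00178 and 0.0189 in edgeR.

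Tssk6 encodes the kinase also called SSTK, which is known to be needed for the packing of sperm DNA. It lies on chromosome 8 (69902184 to 69903518; ENSMUSG00000047654.6). Counts of Tssk6 were 32 and 37 for the LARP7 antibody and 306 and 141 for IgG. In CPM these were 8.31 and 8.49 under LARP7 and 23.9 and 22.3 under IgG, with close replicates in both groups. Tssk6 was 2.75-fold lower (-1.46 ± 0.39 SE on the log2 scale, edgeR adjusted p = 0.0254), the smallest fall among the members tested. The value stayed between -1.47 and -1.41 without any single library, but 3 of these fits missed the threshold, those leaving out LARP7 replicate 2, IgG replicate 1 or IgG replicate 2 (edgeR adjusted p = 0.0859, 0.0896 and 0.0720), as did DESeq2 (adjusted p = 0.0553).

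Tssk3 and Tssk4 were counted less. Tssk3, which is needed for spermatid elongation in mice, lies on chromosome 4 (129489008 to 129491730; ENSMUSG00000000411.7). The LARP7 RIP gave it 17 and 6 counts and the IgG RIP 170 and 49, or 4.42 and 1.38 CPM against 13.3 and 7.75 CPM. Replicates of both groups lay apart, but the groups did not overlap. It was 3.68-fold lower (log2 fold change -1.88, SE 0.61, edgeR adjusted p = 0.0452). Leaving out LARP7 replicate 2 (-1.25, edgeR adjusted p = 0.264) or IgG replicate 1 (-1.42, edgeR adjusted p = 0.136) ended the call, and so did DESeq2 (-1.90, adjusted p = 0.0959). Without LARP7 replicate 1 the value was -2.94.

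Tssk4, whose kinase is known to phosphorylate the outer dense fibre protein ODF2 of the sperm tail, lies on chromosome 14 (55643651 to 55652539; ENSMUSG00000007591.14). Only 6 and 2 counts were found with the LARP7 antibody, against 57 and 36 with IgG. In CPM these were 1.56 and 0.459 against 4.45 and 5.70, with no overlap. It was 5.03-fold lower (log2 fold change -2.33, SE 0.74, edgeR adjusted p = 0.0422). It missed the threshold when LARP7 replicate 2 (-1.68, edgeR adjusted p = 0.287) or IgG replicate 2 (-2.09, edgeR adjusted p = 0.0658) was left out and with DESeq2 (-2.38, adjusted p = 0.121), and it was -3.43 without LARP7 replicate 1.

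Tssk5 (chromosome 15, 76371958 to 76375191; ENSMUSG00000060794.6) was close to the limit of detection. A single count was found in each LARP7 library, against 22 and 2 in the IgG libraries, and it did not pass the filter. Over both libraries of a group, the TMM-scaled ratio of LARP7 to IgG counts was 0.194, with an exact 95% interval of 0.0222 to 0.782 that covers counting error only. The IgG libraries differed by far more than the LARP7 libraries, and without a filter Tssk5 was not called (log2 fold change -2.11, edgeR adjusted p = 0.587).

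Parts of 3 members overlap other genes in RefSeq, and the sources used here do not say whether strand was used in counting. Tssk3 shares 541 bases with Fam229a, which was itself lower, with 8 and 7 counts under LARP7 and 79 and 42 under IgG (-1.79 ± 0.58 SE on the log2 scale, edgeR adjusted p = 0.0444). Tssk6 shares 375 bases with Ndufa13, a subunit of respiratory complex I (-0.90, adjusted p = 0.261), and Tssk4 shares 156 bases with Tm9sf1 (0.37, adjusted p = 0.648). The posterior SD of 0 for Tssk3, Tssk4 and Tssk6 says that RSEM divided no read between them and these genes.

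Levels can be compared between members per length, as CPM per kilobase of the model's effective length. In the LARP7 RIP Tssk6 was highest, at 6.61 ± 0.09 (SD, n = 2), followed by Tssk2 at 3.14 ± 2.23, Tssk3 at 2.38 ± 1.77, Tssk1 at 1.93 ± 0.41, Tssk4 at 0.66 ± 0.45 and Tssk5 at 0.17 ± 0.015. Between Tssk2, Tssk3 and Tssk1 the libraries of neighbours in that order overlapped, so their order there is not settled. In the IgG RIP Tssk2 was highest, at 21.5 ± 0.34, then Tssk6 at 18.1 ± 0.91, Tssk1 at 8.89 ± 2.43, Tssk3 at 8.64 ± 3.22, Tssk4 at 3.74 ± 0.64 and Tssk5 at 0.70 ± 0.68. Only Tssk1 and Tssk3 overlapped among these neighbours. Tssk2 and Tssk6 thus changed places between the groups, as the sizes of their falls imply, and the difference between those falls was not tested.

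The place of Tssk1 depends on its length. Its model in the files is 3700 nt long, while the RefSeq gene spans 1451 bases, close to the 1387 nt and 1335 nt of the Tssk2 and Tssk6 models. Divided by the RefSeq span, a choice made after seeing the data, Tssk1 had 5.55 and 4.11 CPM per kilobase in the LARP7 libraries and 18.0 and 26.6 in the IgG libraries. The counts come from the whole model of 3700 nt, and how many fell within the RefSeq span is not known, so these values may be too high. On that basis Tssk1 lay above Tssk2 within each LARP7 library (4.49 and 1.49), though the ranges of the 2 genes overlapped. With IgG the ranges overlapped as well (Tssk2 at 20.7 and 20.3). Fold changes between the groups do not depend on this length, but the choice of genes of like length for Tssk1 does.

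As parts of the family's summed CPM, Tssk6 made up 28.8% and 45.7% in the LARP7 libraries and 24.3% and 21.7% in the IgG libraries. Tssk2 made up 21.6% and 11.1% with the LARP7 antibody and 29.3% and 27.4% with IgG. The LARP7 libraries lay on 1 side of the IgG libraries for both members, while those of Tssk1 (27.9% and 32.1% with the LARP7 antibody, 26.6% and 37.5% with IgG) lay within the IgG range. The groups also overlapped for Tssk3 (15.3% and 7.41% against 13.5% and 7.54%) and Tssk4 (5.41% and 2.47% against 4.53% and 5.54%). So they did for Tssk5 (0.90% and 1.23% against 1.75% and 0.31%). With 2 libraries per group, an exact permutation test of such a separation cannot go below p = 0.333. Parts of 1 sum are also tied, as a larger part for 1 member leaves less for the others. These parts are descriptions with no test.

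The members were next set beside protein-coding genes with an average CPM within 2-fold and a model length within 1.5-fold of their own. Such genes are not independent replicates, and the comparison is a description with no test. Of 858 genes like Tssk2, 26.8% were called lower, their median was -0.72 on the log2 scale, and 3 of them had a lower value than Tssk2. Of 986 genes like Tssk1, matched to its longer model of 3700 nt, 16.7% were called lower and the median was -0.07. Of these, 10 had a lower value than Tssk1. This set depends on that length, as the genes like Tssk2, matched to 1387 nt, had the lower median. No set was drawn for the shorter RefSeq span of Tssk1. Tssk4 (2003 like genes, 6.34% called lower, median -0.29) had a lower value than all but 68 of them, and Tssk3 (1476 like genes, 15.2% called lower, median -0.55) than all but 145. Tssk6 stood closest to its like genes: 26.4% of 847 were called lower, their median was -0.72, and 204 had a lower value than Tssk6, so its value lay at the lower edge of their middle range (25th percentile -1.43). The difference between member and like genes was -2.07 for Tssk2, -2.13 for Tssk1, -2.04 for Tssk4, -1.33 for Tssk3 and -0.74 for Tssk6. With library totals these differences were -2.07, -2.11, -2.04, -1.39 and -0.71 in the same order. That scaling moves members and like genes almost alike, so the differences had to stay close and are no check on the scaling. The calls did change: with library totals 73.0% of the genes like Tssk2 were lower, and 57.7% of those like Tssk1. For Tssk4, Tssk3 and Tssk6 the shares were 50.3%, 66.3% and 73.9%.

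**Figure D2:**
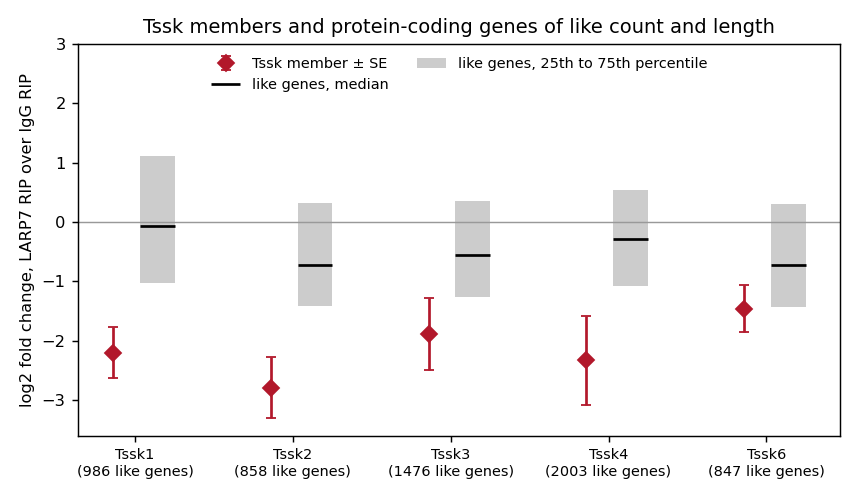
Log2 fold changes (LARP7 RIP over IgG RIP, TMM) of the 5 tested members with their standard errors, beside the median and the 25th to 75th percentile of protein-coding genes of like count and length. Tssk1, Tssk2, Tssk3 and Tssk4 lie below that range of their like genes, and Tssk6 lies at its lower edge, at -1.46 against a 25th percentile of -1.43.

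The proteins that work with the TSSK kinases were followed as a list of 7 genes, of which 2 were lower and none higher (median log2 fold change -0.86), when 9.69% of all genes were lower. Without LARP7 replicate 1 the median was -1.58, with 1 lower and 1 higher, and without LARP7 replicate 2 it was -0.64, with none lower (2 at an unadjusted p under 0.05 in edgeR). Tsks, which encodes the substrate of TSSK1 and TSSK2, reached 45 and 33 counts under LARP7 and 456 and 219 under IgG (9.63 ± 2.91 CPM against 35.1 ± 0.69 CPM, SD, n = 2 each). It was lower by a log2 fold change of -1.87 (SE 0.41, edgeR adjusted p = 0.0134), a call lost without LARP7 replicate 2 and with limma on log2(TPM + 1). Spag16, which encodes a TSSK2 substrate of the axoneme's central apparatus, had 5.60 ± 0.20 CPM with the LARP7 antibody and 17.1 ± 2.68 CPM with IgG (log2 fold change -1.61, edgeR adjusted p = 0.0246). Its call was lost when either LARP7 library or IgG replicate 1 was left out. DESeq2 and limma on log2(TPM + 1) did not call Spag16 either. Odf2 had 115 ± 49.1 CPM against 371 ± 18.6 CPM, a log2 fold change of -1.68 that missed the threshold (edgeR adjusted p = 0.0636). Hsp90aa1, which encodes an HSP90 chaperone that TSSK kinases bind, had 294 ± 190 CPM against 475 ± 62.9 CPM (log2 fold change -0.69, edgeR adjusted p = 0.462). At an unadjusted p under 0.05 there was 1 gene higher in the list. This was Pdpk1, which encodes a kinase that phosphorylates TSSK3 and was picked out after its values were seen, with 40.8 ± 10.7 CPM against 18.3 ± 4.34 CPM (log2 fold change 1.16, edgeR adjusted p = 0.0656).

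Other kinases, anchors and phosphatases of haploid germ cells and sperm held 7 lower and no higher members of 14, with a median of -1.61. Of all genes tested 9.69% were lower. The number lower was 4 without LARP7 replicate 1 and 1 without LARP7 replicate 2 or without IgG replicate 1. Ppp3r2, the testis form of the calcineurin regulatory subunit, had 26 and 21 counts in the LARP7 RIP and 431 and 193 in the IgG RIP (log2 fold change -2.47, SE 0.42, edgeR adjusted p = 0.00578). Its call held under every alternative run but limma on log2(TPM + 1), while the other 9 calls of the 3 lists were each lost when 1 or more single libraries were left out. Ppp1cc, whose testis form of protein phosphatase 1 is needed for sperm formation, had -2.30 (edgeR adjusted p = 0.0201), with 24 and 44 counts in the LARP7 libraries against 770 and 127 in the IgG libraries, which lay apart. Akap4, the main anchor of protein kinase A in the fibrous sheath, had -1.81, and Prkar2a, a regulatory subunit of that kinase, -1.47 (edgeR adjusted p = 0.0301 and 0.0259). The call of Prkar2a was lost with DESeq2. Mak and Tesk1, kinases abundant in male germ cells, had -1.77 and -1.74 (edgeR adjusted p = 0.0196 and 0.0281). Dyrk4 had 0 and 1 counts in the LARP7 libraries against 40 and 10 in the IgG libraries. Its TMM-scaled ratio was 0.0466, with an exact 95% interval of 0.00116 to 0.272 that covers counting error only. The edgeR test, which takes in the spread between libraries, gave an adjusted p = 0.0330. The call of Dyrk4 was lost with the replicate block, with DESeq2 and with limma on log2(TPM + 1) and log2(TPM + 0.1). Akap3, the most abundant member not called, had 65.2 ± 14.3 CPM against 98.4 ± 8.32 CPM (-0.59, edgeR adjusted p = 0.386). Csnk2a2, a casein kinase subunit picked out after its values were seen, was the 1 member higher at an unadjusted p under 0.05 (0.93, edgeR adjusted p = 0.0918). With library totals both Csnk2a2 and Pdpk1 turned to negative values, -0.48 and -0.26.

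The relatives of TSSK within the kinase group, the AMPK-related kinases with their activator Stk11, were 17 genes, of which 13 were tested, 1 was lower and none higher, with a median of -0.09 that lay between -0.16 and 0.14 with a library left out. A single call in 13 is near the 9.69% of all genes called lower and says nothing particular of this list. The member lower was Stk11 itself, with 15 and 27 counts against 211 and 99 (log2 fold change -1.66, SE 0.45, edgeR adjusted p = 0.0258), a call lost with DESeq2. Nuak1 was the member higher at an unadjusted p under 0.05 (2.02, edgeR adjusted p = 0.0980), and it was also picked out after its values were seen. Over the 3 lists, edgeR called 10 of 34 tested genes lower, when 9.69% of all genes were, and none higher. DESeq2 called 7 of 33 lower (5.99% of all genes) and none higher. The numbers lower were 2 of 34 without LARP7 replicate 2 (1.38% of all genes), 2 of 33 without IgG replicate 1 (6.28%) and 6 of 34 without LARP7 replicate 1 (6.29%). With library totals 26 of 34 were lower (47.1% of all genes).

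**Figure D3:**
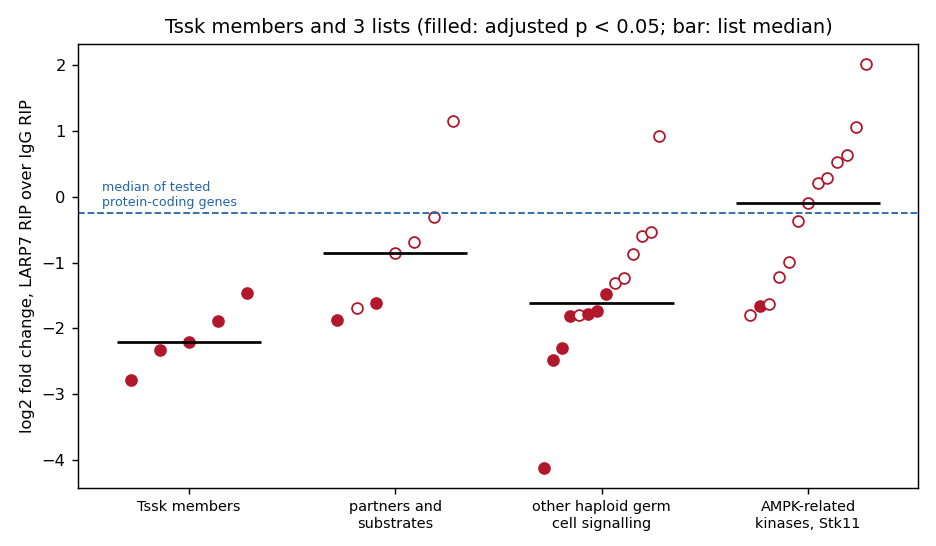
Log2 fold changes (LARP7 RIP over IgG RIP, TMM) of each tested gene of the Tssk family and of the 3 lists, filled where the adjusted p was under 0.05, with bars at the list medians and a dashed line at the median of the tested protein-coding genes, -0.25. The family median of -2.20 lies lowest, followed by the other germ cell signalling genes at -1.61, the partners at -0.86 and the AMPK-related kinases at -0.09.

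The protein-coding genes whose pattern over the 4 libraries lay nearest to that of the summed Tssk models were, out of 9924, Tmem53, Ccdc38, CK137956, Atg9a and Spz1. Likeness was the Euclidean distance between deviations of log2 CPM from the gene's own mean, which was 0.0627 for Tmem53 and 0.145 for Spz1, against a median of 2.04 over all. Tmem53 had 4.42 and 2.52 CPM in the LARP7 libraries and 15.9 and 16.5 CPM in the IgG libraries. Spz1, a transcription factor gene of the testis, had 17.9 and 11.2 CPM against 62.2 and 57.3 CPM. Their log2 fold changes, between -2.22 and -2.03, follow from the way they were chosen. With 4 libraries such nearness is a description of these libraries only.

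Calls of the members depended on the libraries used, as did those of all genes. Without LARP7 replicate 1, when 6.29% of all genes tested were lower, all 5 members named above were called. Without LARP7 replicate 2, when 1.38% of genes were lower, Tssk1 and Tssk2 were called. Tssk1, Tssk2 and Tssk4 were called without IgG replicate 1 (6.28% of genes lower), and Tssk1, Tssk2 and Tssk3 without IgG replicate 2 (6.32% of genes lower). DESeq2, which called 5.99% of genes lower and 13.4% higher, called Tssk1 and Tssk2, and had all 5 at an unadjusted p under 0.05. All 5 were called without a filter on low counts (5.13% of genes lower), with posterior mean counts (11.0%), with the replicate block (11.5%), with library totals (47.1%) and with limma on log2(TPM + 0.1) (35.4%). Limma on log2(TPM + 1) called 0.0% of genes and no member lower, with 4 members at an unadjusted p under 0.05. The authors' TPM of every member in the LARP7 libraries was 0.19 or less, well under that pseudocount.

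**Figure D4:**
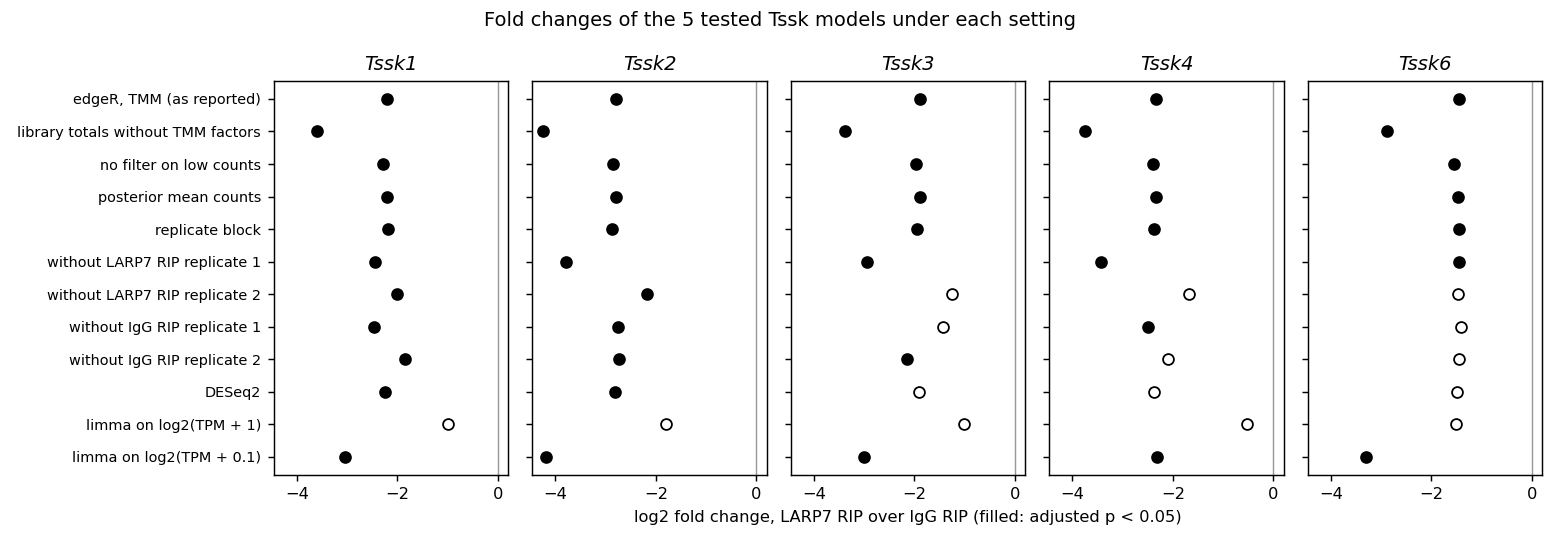
Log2 fold changes (LARP7 RIP over IgG RIP) of the 5 tested Tssk models under the reported setting and each alternative, filled where the adjusted p was under 0.05. All values lie below 0, Tssk1 and Tssk2 stay filled in each row but limma on log2(TPM + 1), and Tssk3, Tssk4 and Tssk6 are open in 4 or 5 rows.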

How the data were processed

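The tools named per the submitters' processing notes are cutadapt, Bowtie2 and RSEM, and the build is mm10; for their versions, settings and use of strand the sources used here say nothing. The deposited files give, per gene model, RSEM's expected count, its posterior mean count and posterior SD, the authors' TPM (per effective length, scaled to a common total) and lengths. Expected counts were rounded. Members, lists and tests were chosen with earlier results of these data known. The test was edgeR 4.0.16 (R 4.3.3): filterByExpr, TMM, robust quasi-likelihood F test, two-sided, Benjamini-Hochberg over 12234 genes, antibody as the only term, checked on simulated data. SEs are the unshrunk log2 fold change over the square root of F. Alternatives were library totals, no filter, posterior mean counts, DESeq2 1.42.0, limma 3.58.1 on log2(TPM + 1) and, added after seeing the data, on log2(TPM + 0.1), the replicate number as a block, and each library left out. A fold change on the log2(TPM + pseudocount) scale understates the change of low genes and carries no TMM factors. Biotypes, coordinates and promoters are RefSeq's (GRCm38.p6), where 35715 of 50600 symbols (70.6%) matched. Named genes were all members, list genes called, the 3 most abundant list genes not called, and the 5 nearest patterns; Pdpk1, Csnk2a2, Nuak1, Zbtb16 and Wt1 fall outside this rule and were picked after their values were seen. Single-value exact 2-against-2 permutation tests cannot go below p = 0.333 and were not used.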

Additional observations from a re-analysis of the deposited data

How the results depend on the processing

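The 5 tested members kept a negative log2 fold change in all 55 combinations of member and alternative, and the call was kept in 40 and lost in 15. The number of members called lower, 5 in the reported test, was 2 to 5 with a library left out, 2 with DESeq2 (5 at an unadjusted p under 0.05) and 0 with limma on log2(TPM + 1), which called 0 of 12234 genes lower (4 members at an unadjusted p under 0.05). It was 5 with limma on log2(TPM + 0.1). The log2 ratio of the summed models, -2.08, was -3.52 with library totals and -2.43 to -1.80 with a library left out. On the log2(TPM + 1) and log2(TPM + 0.1) scales the group means of the summed models differed by -2.74 and -4.32. Those 2 values are differences of mean logs, not logs of a ratio of means, and TPM carries no TMM factors. Over the 3 lists the number lower, 10, was 26 with library totals, 21 with log2(TPM + 0.1), 0 with log2(TPM + 1) (19 at an unadjusted p under 0.05) and 2 to 11 with a library left out. The number higher, 0 with 3 at an unadjusted p under 0.05, was 0 to 1 with a library left out. Replicate numbers are not said to pair libraries, and deviations of same-numbered libraries from their group means correlated at r = 0.23 over 12234 genes. With the replicate block 5 members were lower, and 11 list genes were lower and 1 higher. With a library left out, the lone library of its group is assumed to vary like the other group. The cause of these differences was not tested. Counts of 1 to 6 in the LARP7 libraries limit what can be said of Tssk5, Tssk4 and, in replicate 2, Tssk3.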
